A study of Mus musculus with 8 samples.

Results

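The neuron navigators, the CLASP and EB proteins and the LL5 proteins were followed as 10 genes in hippocampal RNA of male mice: Nav1, Nav2, Nav3, Clasp1, Clasp2, Mapre1, Mapre2, Mapre3, Phldb1 and Phldb2. They were chosen by name, as families of microtubule plus-end biology, from the 20802 genes of the deposited table, and all 10 were found. The choice was made with the difference between the groups in these same mice known, so that difference is described for the 10 genes without a test. The Anesthesia group held 4 C57BL/6 males that had received intraperitoneal ketamine at 35 mg per kg once a day on 5 consecutive days from postnatal day (PND) 16. The Control group held 4 C57BL/6 males that had received normal saline in the same way, although their sample titles call them untreated. RNA was taken from the hippocampus 1 week after the last injection, and all 8 mice are labelled as PND28. Ketamine, a dissociative anesthetic, blocks NMDA-type glutamate receptors.

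Microtubules grow and shrink at their plus ends. EB proteins (Mapre1, Mapre2 and Mapre3) recognise the growing end by themselves and recruit most other plus-end proteins, among them the navigators and the CLASPs, which stabilise the microtubule. LL5 proteins (Phldb1 and Phldb2) sit at the cell cortex, where they bind phosphoinositides and anchor CLASPs, so that microtubule ends are held near the membrane. In neurons this machinery is known for its part in the growth cone, in axon and neurite outgrowth and in the entry of microtubules into dendritic spines.

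The values were DESeq2-normalized counts per gene, 1 value per mouse, with totals of 18702634 to 19231119. From the spacing of the lowest values, the reads assigned to these genes were approximately 15500000 to 22200000 per mouse. This is a rough estimate, since only 51.4% to 73.1% of values under 8 lay near whole reads. The labelled tissue was checked against marker genes. The summed level of 8 CA1 pyramidal neuron genes was 9257 to 12659 normalized counts per mouse, that of 8 dentate granule neuron genes 6028 to 11956 and that of 6 CA3 pyramidal neuron genes 2879 to 5291, so that all 3 hippocampal fields were present in every mouse. Choroid plexus genes, which mark a tissue beside the hippocampus, differed widely between mice. The summed level of 12 choroid plexus genes was 59323, 1471, 822 and 3929 normalized counts in Anesthesia replicates 1 to 4 and 1002, 27687, 69068 and 68828 in Control replicates 1 to 4. Thus 3 of the 4 Anesthesia mice and 1 of the 4 Control mice carried little of this tissue, and results are given below with these levels beside them. In bulk tissue, fewer cells of a type and less RNA per cell cannot be told apart.

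Start regions were taken from the RefSeq windows of GRCm38.p6, which matched 7 of the 10 genes in 11 windows. Those of Nav2 and Phldb2 are shown, because these genes had the largest differences in opposite directions and their windows hold no annotated exon. Each run is the 250 bases before a start, 5′ to 3′ on the strand of the gene, with the GC box GGGCGG in capitals on either strand, where it reads GGGCGG or CCGCCC.
Nav2, upstream start, chr7:48958823-48959072, plus strand: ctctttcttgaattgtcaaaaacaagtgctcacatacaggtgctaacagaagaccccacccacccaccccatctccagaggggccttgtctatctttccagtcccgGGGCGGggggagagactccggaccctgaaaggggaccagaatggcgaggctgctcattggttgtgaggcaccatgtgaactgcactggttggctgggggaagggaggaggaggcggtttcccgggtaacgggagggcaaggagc
Nav2, downstream start, chr7:49245939-49246188, plus strand: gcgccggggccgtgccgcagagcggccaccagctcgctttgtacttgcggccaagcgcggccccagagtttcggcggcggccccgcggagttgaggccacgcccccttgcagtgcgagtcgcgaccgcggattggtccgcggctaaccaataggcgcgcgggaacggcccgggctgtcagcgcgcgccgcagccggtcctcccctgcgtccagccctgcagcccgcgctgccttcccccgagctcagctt
Phldb2, chr16:45844379-45844628, minus strand: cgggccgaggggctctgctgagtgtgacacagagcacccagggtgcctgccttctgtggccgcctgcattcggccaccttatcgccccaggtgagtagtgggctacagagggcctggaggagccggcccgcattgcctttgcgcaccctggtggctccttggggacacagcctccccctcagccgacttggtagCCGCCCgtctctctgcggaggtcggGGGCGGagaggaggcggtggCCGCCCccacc
The upstream Nav2 window held 1 GC box and 7 CG dinucleotides. The downstream Nav2 window held 36 CG dinucleotides and no GC box, with 74.4% of its bases G or C. The Phldb2 window held 3 GC boxes and 16 CG dinucleotides, with 70% of its bases G or C. Over all 32851 windows of this kind the median G and C content was 52.4% and 32.7% held a GC box, against 5 of the 11 windows of the 10 genes. The sequences TATAAA and TGACGTCA, searched on both strands, were in 12.4% and 1.55% of all windows and in none of the 3 shown. All 3 windows shown lie inside the annotated span of their gene. The outermost annotated start is at base 48908716 for Nav2 and at base 45953598 for Phldb2. The 50 bases after the upstream Nav2 start were in 1 of its 18 annotated transcripts, and those after the downstream start in 2. For Phldb2 they were in 1 of 11. The deposited values were summed per gene, so the use of the starts shown could not be told from that of other starts.

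Across all 18865 genes with a mean of at least 10 normalized counts, limma on log2(value + 1) gave 0 genes with an adjusted p under 0.05 (Benjamini-Hochberg), which is 0% in either direction, and limma with voom weights also gave 0. Without adjustment, 1513 genes had a p under 0.05, and 1510 with voom. A call by this rule was therefore made for none of the 10 genes. A simple count was given in its place, the genes whose 4 Anesthesia values all lay above or all lay below the 4 Control values. Of the 10 genes, 2 were of this kind and higher in the Anesthesia group (Nav1 and Nav2), 1 was of this kind and lower (Phldb2) and 7 had groups that overlapped. Over all genes tested the same count was 5.04%, with 2.81% higher and 2.23% lower. The balance of directions depended on the scaling, with 530 genes higher and 420 lower as deposited. It was 461 and 501 with library size alone, and 543 and 371 with upper quartile scaling. Nothing is read from the count of 3, because the genes were chosen with this contrast known. Over the 10 genes the median log2 fold change was 0.092, with 7 above 0. Of all genes tested 49.2% lay above 0, with a median of -0.0036. After a correction for GC content and transcript length, described further on, 5 of the 10 genes lay above 0 with a median of 0.0073, and the median of all genes tested was -0.015.

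**Figure D1:**
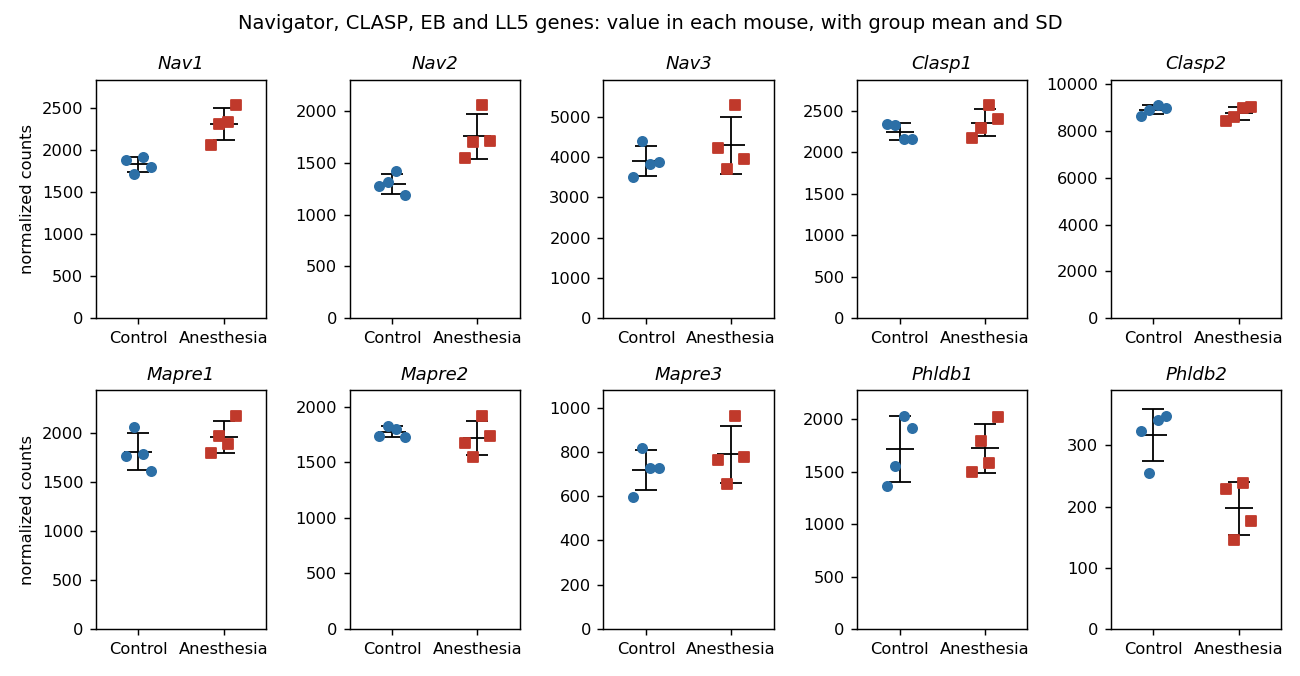
Normalized counts (vertical axes, from 0) of the 10 genes in each of the 4 Control mice (circles) and 4 Anesthesia mice (squares), with the group mean and SD as bars. Nav1 and Nav2 sit higher in every Anesthesia mouse, Phldb2 sits lower in every Anesthesia mouse, and the groups overlap for the other genes.

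Navigators are large proteins that bind microtubule plus ends and are related to the nematode guidance protein UNC-53. Nav1, which acts with the exchange factor Trio in the growth cone, had 2055, 2310, 2334 and 2527 normalized counts in Anesthesia replicates 1 to 4 and 1880, 1717, 1918 and 1795 in Control replicates 1 to 4. The lowest Anesthesia mouse thus stood above the highest Control mouse, by 2055 against 1918. The means were 2306 ± 194 and 1828 ± 89.6 (SD, n = 4 each), and the log2 fold change was 0.33 (standard error 0.071, 1.26-fold). Nav1 (ENSMUSG00000009418) spans bases 135434580 to 135607295 of chromosome 1 on GRCm38, and 589 of its exonic bases are shared with Gm4793 on the opposite strand, a gene with a mean of 15.6 normalized counts. The study's methods name a stranded library kit, while the labels name a different kit. Whether the strand of a read was used is not stated, so reads of the shared bases may belong to either gene.

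Nav2, first described as a gene induced by retinoic acid in neuronal cells, had 1549, 1702, 2055 and 1714 normalized counts in the Anesthesia mice and 1274, 1312, 1419 and 1186 in the Control mice. Anesthesia replicate 3 was the highest of the 8, and the lowest Anesthesia mouse stood above the highest Control mouse, by 1549 against 1419. Anesthesia replicate 3 also had the lowest summed level of each hippocampal field list, at 9257 for CA1, 2879 for CA3 and 6028 for dentate granule neurons, and the part of this in its navigator values was not tested. Without it the log2 fold change of Nav2 was 0.35. The means were 1755 ± 213 and 1298 ± 96.6 (SD, n = 4 each), and the log2 fold change came to 0.43 (standard error 0.090, 1.35-fold). The gene (ENSMUSG00000052512) lies on chromosome 7 from 48908716 to 49610090.

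Nav3, the most abundant navigator in these libraries, had 4227, 3694, 5286 and 3944 normalized counts in the Anesthesia mice and 3500, 4409, 3821 and 3866 in the Control mice. The groups overlapped, and Anesthesia replicate 3 alone stood above all Control mice. The log2 fold change was 0.13 (standard error 0.11). It was 0.023 without Anesthesia replicate 3 and 0.078 without Control replicate 1, and 0.20 without Anesthesia replicate 2 and 0.19 without Control replicate 2. The gene (ENSMUSG00000020181) lies on chromosome 10 from 109681259 to 110456204. Per kilobase of transcript, Nav3 made up 60.6% ± 2.93 of navigator signal in the Control group and 56.4% ± 3.48 in the Anesthesia group (SD, n = 4 each), Nav1 21.7% ± 1.95 and 23.3% ± 2.85, and Nav2 17.8% ± 1.25 and 20.4% ± 1.02. The groups overlapped in all 3 shares.

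CLASPs bind EB proteins and CLIPs and slow the shrinkage of microtubules, chiefly at the leading edge and the axon tip. Clasp2, the most abundant of the 10 genes, had 8410, 8597, 8963 and 9013 normalized counts in the Anesthesia mice and 8638, 8894, 9089 and 8970 in the Control mice. The values of the groups were interleaved, and Clasp2 varied least of the 10 genes between mice, with coefficients of variation of 3.33% (Anesthesia) and 2.15% (Control). For Clasp2 the log2 fold change was -0.025 (standard error 0.047). Clasp1 had 2175, 2287, 2565 and 2403 normalized counts in the Anesthesia mice and 2345, 2330, 2160 and 2158 in the Control mice. These groups overlapped too, and the log2 fold change came to 0.067 (standard error 0.065). With single mice left out it ranged from 0.026, without Anesthesia replicate 3, to 0.10, without Anesthesia replicate 1, and that of Clasp2 from -0.040 to -0.0066. Clasp1 lies on chromosome 1 from 118389058 to 118612678 and Clasp2 on chromosome 9 from 113741473 to 113919682. Per kilobase, the share of CLASP signal carried by Clasp2 was 87.2% ± 0.486 in Anesthesia mice and 87.9% ± 0.693 in Control mice (SD, n = 4 each).

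EB proteins are small adaptors of the growing end. Mapre1 encodes EB1, the general family member, and had 1793, 1970, 1887 and 2174 normalized counts in the Anesthesia mice and 1766, 2066, 1785 and 1614 in the Control mice. All 4 Anesthesia values stood above 3 of the Control values, and Control replicate 2 lay among the Anesthesia mice. The groups did not overlap without Control replicate 2, and the log2 fold change of Mapre1 was then 0.18, against 0.063 without Control replicate 4 and 0.064 without Anesthesia replicate 4. Mapre2, which encodes EB2, ranged from 1547 to 1917 in the Anesthesia and from 1727 to 1830 in the Control group. Mapre3 encodes EB3, the form enriched in neurons, and ranged from 653 to 962 and from 597 to 819. The log2 fold changes were 0.12 for Mapre1 (standard error 0.086), -0.048 for Mapre2 (standard error 0.070) and 0.13 for Mapre3 (standard error 0.13). That of Mapre2 was -0.10 without Anesthesia replicate 3 and 0.0015 without Anesthesia replicate 2. The value of Mapre3 moved both ways with the mouse left out, to 0.031 without Anesthesia replicate 3 and 0.046 without Control replicate 1, and to 0.22 without Anesthesia replicate 2 and 0.20 without Control replicate 2. The genes lie on chromosomes 2 (153741274 to 153773310), 18 (23752333 to 23893861) and 5 (30814641 to 30866106).

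Phldb2 encodes LL5β, known for holding CLASPs at the cell cortex and for its place at the neuromuscular junction. It had 228, 146, 238 and 177 normalized counts in Anesthesia replicates 1 to 4 and 324, 254, 341 and 348 in Control replicates 1 to 4. The highest Anesthesia mouse stood below the lowest Control mouse, by 238 against 254, and Control replicate 2 was the nearest to the Anesthesia group. The means were 197 ± 43.5 and 317 ± 43.2 (SD, n = 4 each), and the log2 fold change was -0.69 (standard error 0.17, 0.618-fold), with a range of -0.80 to -0.56 when single mice were left out. Phldb2 was the least abundant of the 10 genes and rested on approximately 134 to 357 reads per mouse by the rough estimate of depth. By that estimate, counting error alone was about 5.29% to 8.63% of a value. The coefficient of variation between mice was 22% in the Anesthesia and 13.7% in the Control group. The gene (ENSMUSG00000033149) lies on chromosome 16 from 45746243 to 45953598.

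Phldb1 encodes LL5α, the other LL5 protein. It had 1499, 1796, 1585 and 2023 normalized counts in the Anesthesia mice and 1367, 1550, 2032 and 1921 in the Control mice. The groups covered nearly the same range, and the log2 fold change was 0.016 (standard error 0.13). It changed sign with the mouse left out, at -0.088 without Control replicate 1 and 0.10 without Control replicate 3. Phldb1 lies on chromosome 9 from 44686304 to 44735198. Per kilobase, Phldb2 made up 16% ± 2.38 of the LL5 signal in the Control group and 10.7% ± 3.15 in the Anesthesia group (SD, n = 4 each). Its lowest Control share was 14.3% and its highest Anesthesia share 13.5%.

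**Figure D2:**
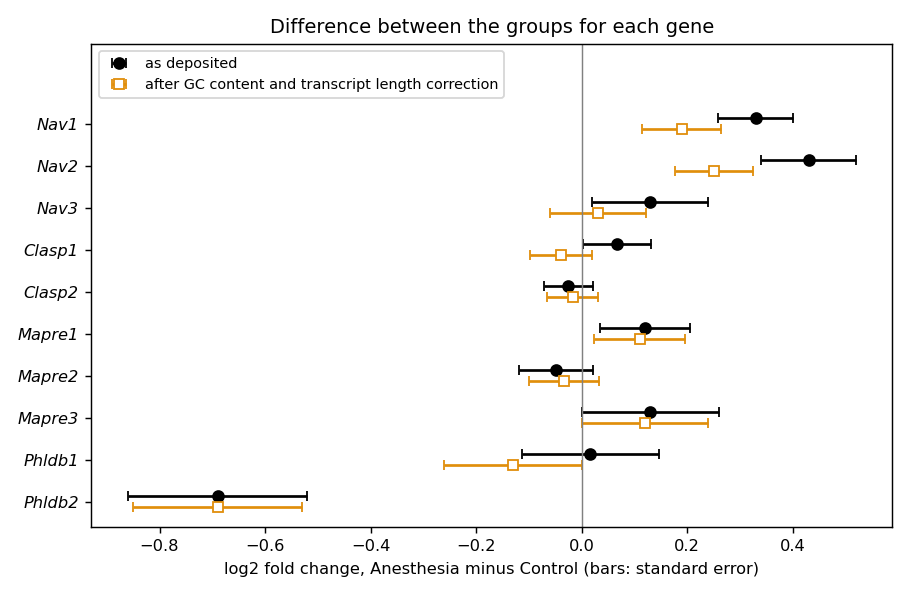
Log2 fold change of each gene, Anesthesia minus Control (horizontal axis), with standard error bars, as deposited (filled circles) and after correction of the libraries for GC content and length of transcript (open squares). Nav1 goes from 0.33 to 0.19 and Nav2 from 0.43 to 0.25, while Phldb2 is at -0.69 in both.

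Several of the genes share a feature that the choice did not use, which is length. The longest coding transcripts of Nav1 (13117 bases), Nav2 (11317 bases), Clasp1 (10265 bases) and Nav3 (9962 bases) were longer than those of 99.3%, 98.7%, 98% and 97.8% of all genes tested. Nav2 and Nav3 also span 701375 and 774946 bases of the genome. Mapre3 had the shortest transcript, with 2021 bases. Long transcripts as a class were therefore looked at in the same mice. The median log2 fold change was 0.051 over the 913 genes tested with a transcript of at least 8000 bases, -0.0004 over the 12525 genes between 2000 and 8000 bases and -0.025 over the 5411 shorter genes. In each mouse the median of the long class, relative to the Control mean, was 0.020, 0.068, 0.063 and 0.052 in the Anesthesia group and 0.0076, -0.0033, -0.0046 and -0.0028 in the Control group. All 4 Anesthesia mice were thus above all 4 Control mice, with Anesthesia replicate 1 the nearest. In this class 7.89% of genes had groups that did not overlap and were higher in the Anesthesia group, and 1.2% were lower. After the correction for GC content and length described next, the median of the class was -0.030.

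**Figure D3:**
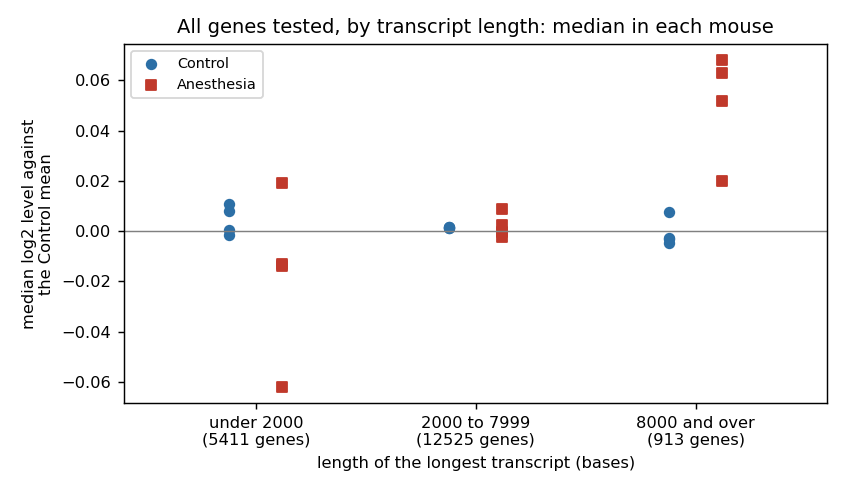
Median log2 level, relative to the Control mean of each gene (vertical axis), of all genes tested in 3 classes of transcript length, for each Control mouse (circles) and Anesthesia mouse (squares). In the class of 8000 bases and over, the Anesthesia mice lie between 0.020 and 0.068, above every Control mouse.

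Nav2, Phldb1 and Nav1 moved most when the libraries were corrected for the GC content and length of transcripts. Nav1 then had 2064, 2265, 2023 and 2433 normalized counts in the Anesthesia mice and 2010, 1802, 2025 and 1843 in the Control mice, so that Anesthesia replicate 3 and Control replicate 3 touched and the groups overlapped. Its log2 fold change became 0.19 (standard error 0.075). Nav2 kept groups that did not overlap, at 1561 to 1722 against 1221 to 1517, and the log2 fold change came to 0.25 (standard error 0.074). Nav3 came to 0.031 (standard error 0.091), while Clasp1 and Phldb1 changed sign, to -0.039 (standard error 0.058) and -0.13 (standard error 0.13). Phldb2, with a transcript of 5483 bases, was at -0.69 (standard error 0.16) after the correction as before it. Of all genes tested, 3.92% had groups that did not overlap after the correction, 1.88% higher and 2.04% lower. The part of GC content and length in the navigator difference was not tested.

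Choroid plexus level was set beside the 3 genes whose groups did not overlap. Among the 4 mice with the least choroid plexus, Nav1 was 2310, 2334 and 2527 in the 3 Anesthesia mice and 1880 in Control replicate 1. Nav2 was 1702, 2055 and 1714 in these Anesthesia mice and 1274 in that Control mouse, and Phldb2 was 146, 238 and 177 against 324. Among the mice with more choroid plexus, Anesthesia replicate 1 had 2055 normalized counts of Nav1 and the Control mice 1717 to 1918, with 1549 against 1186 to 1419 for Nav2 and 228 against 254 to 348 for Phldb2. Since the groups of these 3 genes do not overlap, any such division of the mice shows their direction, and the part of the choroid plexus in the differences was not tested. With the choroid plexus level as a covariate, a setting chosen after the data were seen, the log2 fold changes were 0.29 for Nav1, 0.38 for Nav2 and -0.64 for Phldb2. The most abundant gene of the list, Ttr, which encodes the thyroxine carrier transthyretin, ranged from 145 to 61582, and of the 12 genes, none of which had a log2 fold change above 0, only Kcne2 was listed at 0, in Control replicate 1. Kcne2 is named because of that 0.

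**Figure D4:**
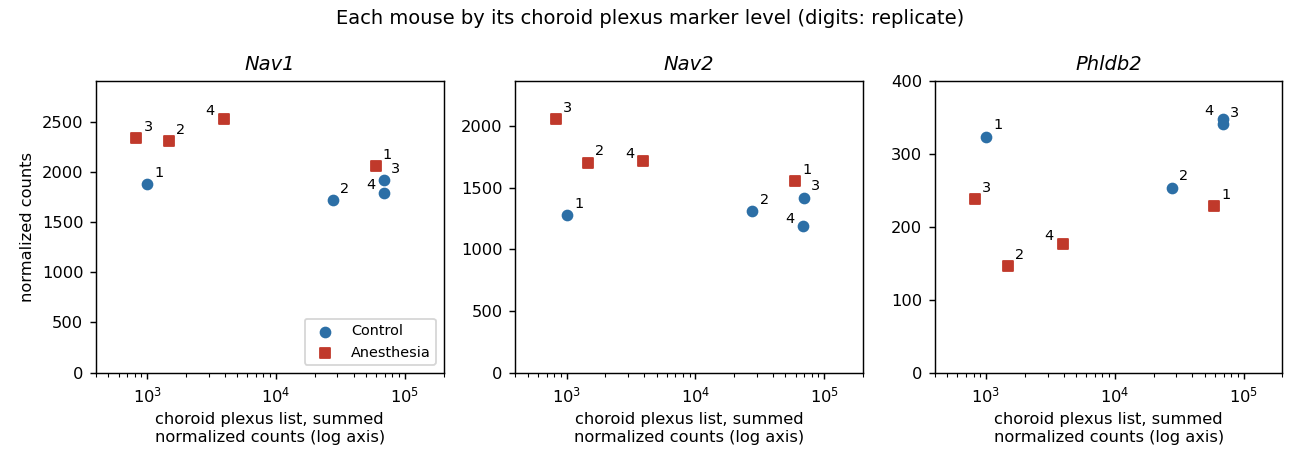
Normalized counts of Nav1, Nav2 and Phldb2 (vertical axes, from 0) in each mouse against the summed level of 12 choroid plexus genes (horizontal axes, log scale), with Control mice as circles, Anesthesia mice as squares and the replicate number beside each point. The choroid plexus level runs from 822 to 69068, with Control replicate 1 among the low mice and Anesthesia replicate 1 among the high ones.

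Connective tissue and vessel genes were read beside Phldb2. For the fibroblast list, 2 of the 10 genes were above 0 and none was called, with a median log2 fold change of -0.29. Its summed level was 4477, 2894, 4374 and 4052 normalized counts in the Anesthesia mice and 5332, 4402, 4068 and 5881 in the Control mice, so that the groups overlapped, and its most abundant gene, the fibronectin gene Fn1, ranged from 983 to 1746. The median log2 level of the list against the Control mean was -0.13, -0.78, -0.28 and -0.73 in the Anesthesia mice. In the Control mice it was 0.10, -0.24, -0.38 and 0.39. Anesthesia replicates 2 and 4, the lowest by this median, also had the least Phldb2. Control replicate 3, however, was lower by this median than Anesthesia replicates 1 and 3. It had 341 normalized counts of Phldb2, against 228 and 238 in those mice. The mural cell list of 8 genes summed to 4386 to 5189 in the Anesthesia and 4672 to 5489 in the Control group. Its median log2 fold change was -0.10, with 1 gene above 0 and Rgs5 as its most abundant gene. The endothelium list of 10 genes summed to 5082 to 6389 and 4965 to 6367, with a median of -0.0067, 5 genes above 0 and Slco1a4 as its most abundant gene. None of the genes in these lists was at 0 in any mouse. The part of these cells in the Phldb2 difference was not tested.

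The order of levels among the 10 genes was tested within mice, over both groups together. The levels of Nav1, Nav2 and Phldb2 carry the group difference that was known at the choice, so the groups are given apart where they differ in order. Normalized counts per kilobase of the longest coding transcript were highest for Clasp2, with 1573 ± 43.1, and then fell from Mapre2 (434 ± 27.2) through Nav3 (411 ± 56.3), Mapre3 (373 ± 54.4), Phldb1 (307 ± 45.6), Mapre1 (257 ± 24.7), Clasp1 (224 ± 13.7), Nav1 (158 ± 22.2) and Nav2 (135 ± 25.5) to Phldb2 (46.9 ± 13.7), all as SD over n = 8 mice. Of the 9 neighbouring pairs, 8 differed within mice at an adjusted p under 0.05 (two-sided exact sign-flip permutation test of the log2 ratio, Benjamini-Hochberg over the 9 pairs). The pairs and their direction were set by the mean levels in these same mice. A small p thus says only that the neighbours kept their order from mouse to mouse. Pairs that hold Nav1, Nav2 or Phldb2 are in the count of 8. Their pooled ratios carry the known group difference, so nothing is read from their p-values. Clasp2 exceeded Mapre2 by 1.86 on the log2 scale in 8 of 8 mice (exact permutation p = 0.00781, the smallest that 8 mice allow, adjusted p = 0.0141). Mapre2 and Nav3 did not differ beyond their spread, with a log2 ratio of 0.087 and 6 of 8 mice in that direction (exact permutation p = 0.125, adjusted p = 0.125). Mapre2 was the higher in 4 of 4 Control mice, at a mean of 441 against 391, and in 2 of 4 Anesthesia mice, at 427 against 430.4. Nav1 stood above Nav2 in 4 of 4 Control mice, at a mean of 139 against 115. It did so in 3 of 4 Anesthesia mice, at 176 against 155. Nav2 stood above Phldb2 in 4 of 4 Control mice, at 115 against 57.7, and in 4 of 4 Anesthesia mice, at 155 against 36.

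This order rests on the length used, since the deposited values do not say which transcripts were read. With the summed length of all annotated exons, 4 of the 9 neighbouring pairs differed. Clasp2 and Nav3 came first and second, and Nav2 and Phldb2 came last. Here too nothing is read from the p-values of pairs that hold Nav1, Nav2 or Phldb2. By this length Clasp2 was again first in both groups, but the groups differed in order at 2 points. Mapre1 stood above Phldb1 in the Anesthesia group, at 250 against 240 per kilobase, and below it in the Control group, at 231 against 239. Phldb2 was last in the Anesthesia group, at 26.1 per kilobase against 54.5 for Nav2, with Nav2 higher in 4 of 4 mice. In the Control group Nav2 was last, at 40.3 against 41.8 for Phldb2, with Nav2 higher in 1 of 4 mice.

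**Figure D5:**
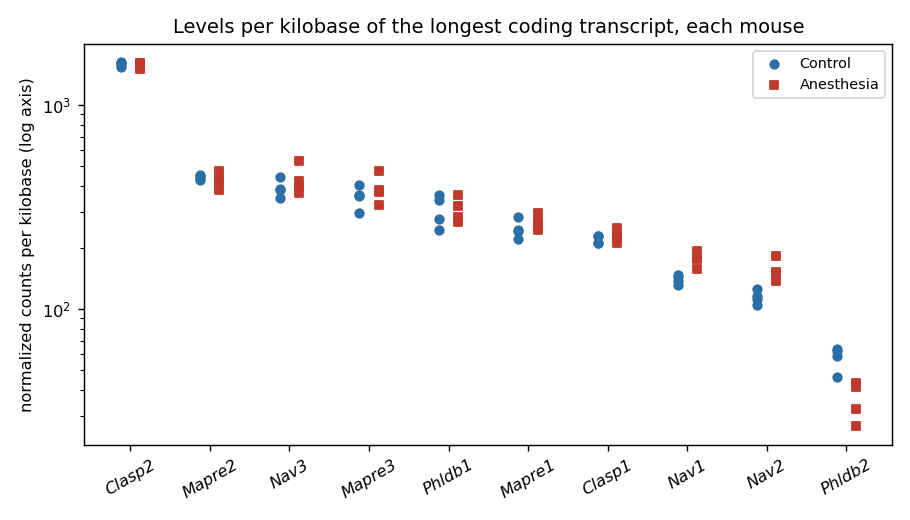
Normalized counts per kilobase of the longest coding transcript (vertical axis, log scale) of the 10 genes in order of their mean, in each Control mouse (circles) and Anesthesia mouse (squares). Clasp2 stands apart at the top with a mean of 1573 and Phldb2 at the bottom with 46.9.

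The other genes of the plus-end pathway came from lists that hold none of the 10 genes. In the 5 lists together, 67 genes were tested and 0 had an adjusted p under 0.05 from limma, with adjusted p-values between 0.565 and 0.991. Of the 67 genes, 4 had groups that did not overlap and were higher in the Anesthesia group and 1 was lower, against 2.81% and 2.23% of all genes tested.

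Of 24 plus-end tracking genes, 16 had a log2 fold change above 0, with a median of 0.074, and 0 passed the test. Dctn1, which encodes the largest dynactin subunit, had 4367, 4771, 4017 and 4048 normalized counts in the Anesthesia mice and 3948, 3957, 3995 and 3508 in the Control mice, a log2 fold change of 0.16 (adjusted p = 0.622 from limma). Apc2, a neuronal relative of the tumour suppressor Apc, was chosen after its values were seen, since its groups did not overlap either (log2 fold change 0.30, adjusted p = 0.573 from limma). Macf1, a giant spectraplakin that links actin to microtubules, had 23521 to 25029 in the Anesthesia and 25159 to 27560 in the Control group, a log2 fold change of -0.10 (adjusted p = 0.636 from limma). Its relative Dst was at 0.042, Apc at 0.065 and the microtubule polymerase gene Ckap5 at 0.011. The CLIP genes Clip1 and Clip2, whose products bridge plus ends and cargo, were at 0.089 and 0.15, the Lis1 gene Pafah1b1 at -0.051 and Trio, the partner of Nav1, at 0.14. The ends of the list were Srcin1 at 0.48 (standard error 0.18) and Nde1 at -0.26 (standard error 0.13), or 0.33 and -0.25 after the correction. Srcin1 had 2654 normalized counts in Anesthesia replicate 3 and 1482 to 1695 in the other Anesthesia mice. The Control mice had 1076 to 1508, so the groups overlapped. After the correction for GC content and length the median of the list was 0.0017, and Clip2 came to 0.013, Clip1 to 0.056, Apc2 to 0.077, Dctn1 to 0.056, Macf1 to -0.22, Dst to -0.11, Apc to -0.012 and Trio to -0.019.

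The cortical platform links LL5 to ELKS, liprins, KANK proteins and the kinesin KIF21A. Of its 16 listed genes 15 were found, and Phldb3, the third LL5 relative, was not analysed here. Of the 15, 10 lay above 0, with a median of 0.076. That median was 0.033 after the correction for GC content and length, 0.025 without Anesthesia replicate 1, 0.047 without Control replicate 4, 0.049 without Control replicate 1 and 0.14 without Control replicate 3. Ppfia3, a liprin-α gene, had 1841, 1891, 2061 and 1874 normalized counts in the Anesthesia mice and 1577, 1601, 1562 and 1626 in the Control mice. Ppfia4, another liprin-α gene, had 1178, 1389, 1304 and 1278 and 1088, 1079, 1056 and 1076. Both were chosen after their values were seen, as the genes of this list whose groups did not overlap, and their log2 fold changes were 0.27 (standard error 0.056) and 0.26 (standard error 0.064), each with an adjusted p of 0.565 from limma. After the correction for GC content and length they came to 0.14 and 0.13, with Kif21b at 0.23 and Erc1 at 0.053. Against -0.69 for Phldb2, the partners of LL5β had log2 fold changes nearer to 0: Erc1, an ELKS gene, was at 0.16 (standard error 0.074), Erc2 at -0.017, the liprin-β gene Ppfibp1 at 0.076, Kank1 at -0.045 and Kif21a at 0.0065. The ends of the list were Kif21b at 0.40 (standard error 0.15) and Ppfibp2 at -0.25 (standard error 0.26). Kif21b had 1344 normalized counts in Anesthesia replicate 3 and 771 to 1057 in the other Anesthesia mice. The Control mice had 671 to 849, so the groups overlapped.

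Signalling and structural genes came last. Of 14 kinase and phosphoinositide genes that bear on CLASP and EB binding, 13 were tested, with 10 above 0 and a median of 0.053, which was 0.0087 after the correction for GC content and length. Gsk3b, a kinase that phosphorylates CLASPs, had the highest log2 fold change, 0.23 (standard error 0.091, adjusted p = 0.62 from limma), with 3078 to 3973 normalized counts against 2644 to 3199, and Cdk5 the lowest, -0.031. The highest Gsk3b value was in Anesthesia replicate 3, and the log2 fold change of Gsk3b was 0.17 after the correction. The 12 tubulin genes had a median of -0.0042 (-0.035 to 0.012 with single mice left out) with 6 above 0, from Tuba8 at 0.070 to Tuba1c at -0.98 (standard error 0.64). Tuba1c was 125, 19.6, 58.6 and 21.3 normalized counts in the Anesthesia mice and 32.8, 59.3, 162 and 156 in the Control mice, so that the 3 highest values were in the 3 mice with the most choroid plexus. The abundant neuronal tubulins Tuba1a and Tubb3 were at -0.042 and 0.028. For the minus end, Camsap1 was at 0.15 (0.065 after the correction), Camsap2 at -0.021 and Camsap3 at -0.44 (standard error 0.19, adjusted p = 0.622 from limma), a median of -0.021 that was -0.058 after the correction and 0.0082 without Anesthesia replicate 3. Camsap2 is named to complete this list of 3.

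Likeness to other genes was measured within groups, so that it does not repeat the difference between them. Over the 8 mice, after the group mean was subtracted from log2(value + 1), the 3 genes of 12246 with the highest Pearson correlation to Nav1 were Prr5l (0.98), Pigv (0.96) and Cdc123 (0.96). Those of Nav2 were Fam124a (0.991), Herpud2 (0.977) and Myo19 (0.976). Those of Phldb2 were Cpxm1 (0.973), Fam199x (0.946) and Ehd4 (0.944). These are the extremes of many genes over 8 points that share their libraries, and are a description only. The log2 fold change was -0.20 for Cpxm1, -0.028 for Fam199x and -0.050 for Ehd4, against -0.69 for Phldb2. Against 0.33 for Nav1, it was -0.046 for Prr5l, -0.059 for Pigv and 0.030 for Cdc123. Against 0.43 for Nav2, it was 0.49 for Fam124a, 0.049 for Herpud2 and 0.21 for Myo19.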

How the data were processed

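Hippocampal RNA of 8 mice was sequenced, 1 library per mouse. The authors estimated transcript abundance with Salmon (1.1.0) on GRCm38 with GC bias correction, summed it per gene with tximport and normalized it with DESeq2 (1.30.1), so the deposited values are a normalized signal per gene and not read counts. The annotation release and the filter on low genes are not given in the sources used here. Of values under 8, 51.4% to 73.1% per mouse were whole reads to a tolerance of 0.1, too few to recover read counts. The labels and the study's methods name different library kits.

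The authors' own test for differences models read counts. It was replaced here by a test on the log scale, and numbers of genes called here are not those of the study's test. Here limma (3.58.1, R 4.3.3) with trend = TRUE and no covariate was applied to log2(value + 1) for 18865 genes whose mean reached 10, leaving out 1937, with Benjamini-Hochberg adjustment over all of them and a threshold of 0.05. Fold changes on this scale understate those of low genes. Symbols, positions and lengths came from GENCODE M21 (GRCm38), which held 20784 of 20802 identifiers. The scripts were tested on simulated data. The 10 genes and the lists were chosen with earlier results of these data known. Named genes were the 10, genes of the lists set by name, the ends of each list, the most abundant marker genes and the 3 genes most like Nav1, Nav2 and Phldb2. Apc2, Ppfia3, Ppfia4, Kcne2, mt-Nd4l and Gm10222 were named after their values were seen, and Gm4793 for the bases it shares with Nav1. The labels do not say whether mice were littermates, and p-values measure the spread between these mice. Alternatives were another pseudocount (0.1), filters, scalings, voom weights, a loess correction (span 0.3) for GC content and transcript length, known for 18849 genes, a replicate block and leaving out each mouse.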

Additional observations from a re-analysis of the deposited data

Results flagged for a closer look

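In 36 named genes and 19 gene lists, 110 groups of 4 mice were searched for a single distant value, and 6 held one, where chance alone gives about 5.5 (some 1 in 20). None of the 10 navigator, CLASP, EB and LL5 genes held such a mouse. Control replicate 2 had 5779 normalized counts of Ckap5 against 5101 to 5144 in the other Control mice. Control replicate 1 had 22204 of Dst against 23707 to 23971. Control replicate 4 had 3508 of Dctn1 against 3948 to 3995, and 4666 of Kif21a against 4291 to 4317. Anesthesia replicate 1 had 1630 of Erc1 against 1869 to 1917 in the other Anesthesia mice, which placed it among the Control mice. For microglia genes, the median log2 level against the Control mean was 0.16 in Control replicate 4 and -0.067 to -0.043 in the other Control mice.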

How the results depend on the processing

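The number of genes with an adjusted p under 0.05 was 0 under every alternative but the fit without Control replicate 1. Leaving out single mice gave 0 to 2, and the 2 genes were mt-Nd4l and Gm10222, named after their values were seen. With the replicate number as a block it was 0, and 1084 genes had an unadjusted p under 0.05 in place of 1513. That count was 860 with the block and the correction for GC content and length together, and 867 with the choroid plexus covariate, which was added after the data were seen. Same-numbered mice showed no sign of pairing, with correlations of -0.242, -0.109, -0.182 and 0.0194 between their deviations. No Anesthesia mouse correlated best with the Control mouse of its own number. Whether the mice were paired by design cannot be told from these values.

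The count of genes whose groups do not overlap was 950 and ranged from 1322 to 2165 with a mouse left out, as fewer mice make the rule easier to meet. The correction for GC content and length left 739. Of the alternatives that could make the groups of Nav1, Nav2 or Phldb2 overlap, which are the other scalings and that correction, only the correction did so, for Nav1. Under the correction, the log2 fold changes of Nav1 (0.19), Nav2 (0.25), Clasp1 (-0.039) and Phldb1 (-0.13) moved by more than their standard errors. These values were the same with the block added. Mapre2 (-0.10 to 0.0015) and Phldb1 (-0.088 to 0.10) changed sign with the mouse left out. The median of the plus-end tracking list was 0.0017 with the correction, with or without the block, and 0.044 to 0.084 with a mouse left out. The other list medians moved by less than the spread between mice. The order of levels had 8 of 9 pairs past the threshold, 6 to 9 with a mouse left out and 4 with the summed length of exons. These counts include pairs that hold Nav1, Nav2 or Phldb2, from whose p-values nothing is read. The pairs were set from the same mice. The causes were not tested. Of the 10 genes, depth limits Phldb2 most, at approximately 134 to 357 reads per mouse by the rough estimate of depth.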

Other observations

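Further cell type lists were read for their levels in the same mice. Of 10 interneuron genes 3 had a log2 fold change above 0 (median -0.036), and their most abundant gene, Gad1, which makes the transmitter GABA, ranged from 4027 to 5160 normalized counts. Of 8 immature neuron genes 6 lay above 0 (median 0.070). The medians were -0.10 for 8 CA1 pyramidal neuron, -0.16 for 6 CA3 pyramidal neuron and -0.031 for 8 dentate granule neuron genes, and -0.24 for 8 thalamus genes, a neighbouring region. In glia they were -0.071 for 10 astrocyte, -0.056 for 10 oligodendrocyte, -0.028 for 8 oligodendrocyte precursor and 0.036 for 10 microglia genes. No gene of these lists was called by limma after adjustment. Of the 10 astrocyte genes, 2 had groups that did not overlap and were lower in the Anesthesia group, and 1 of 10 microglia genes and 1 of 8 mural cell genes had such groups and were higher, against 2.23% lower and 2.81% higher over all genes tested. Slc1a2, the main glutamate transporter of astrocytes and the most abundant gene of the astrocyte list, ranged from 75386 to 87619 in the Anesthesia and from 70245 to 76406 in the Control group.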
